A study of Mus musculus with 335 samples.

Results

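Claudins are the membrane proteins that form the strands of the tight junction, the seal at the apical edge of an epithelial sheet. Described here are 6 claudins of epithelia, Cldn1, Cldn3, Cldn4, Cldn6, Cldn7 and Cldn10, which are 6 of the 20188 genes of a deposited RPKM table, chosen by their symbols, across mouse models of metastatic mammary cancer. Cldn1 is the claudin of the epidermal barrier. Cldn3 and Cldn4 are barrier claudins of simple epithelia and bind the enterotoxin of Clostridium perfringens, and Cldn7 lies mostly on the lateral membrane, where it binds Epcam. Cldn6 is a claudin of embryonic epithelia, and Cldn10 forms ion-selective pores, best known in the kidney. Breast tumours with little Cldn3, Cldn4, Cldn7 and E-cadherin and with much vimentin are known as claudin-low.

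From 335 RNA-seq libraries of 61 groups, 281 profiles were made, each the mean over the 1 to 3 libraries of a tissue of 1 animal or of 1 culture. Primary mammary tumours gave 123 profiles in 22 models. In 14 of them a mouse mammary tumour line had been injected into the mammary gland (orthotopic allografts), so each of these models is 1 line. The lines 4T1, 4T07, 67NR, D2A1, EMT6, F311 and TSAE1 grew in mice labelled BALB, E0771 in BL6, R3T in 129S1J, and 6DT1, Mvt1, Met1 and HRM1 in FVB. M6 orthotopic tumours carried the strain entry REAR. The labelled driver was cMyc for 6DT1, cMYC / VEGF for Mvt1, SV40T for M6, PyMT for Met1 (the middle T antigen of polyoma virus), Pik3ca for HRM1 and unknown for the other lines. The other 8 models were transgenic mice that formed tumours of their own: MMTV-PyMT in FVB, BL6, BL10, CAST and MOLF mice, and MMTV-Myc, MMTV-Neu and C3Tag (SV40T) in FVB mice. The MMTV promoter acts mainly in mammary epithelium. Lung metastases came from 10 models with primary tumours of the same animals and from MMTV-Neu; liver, spleen and brain metastases, tail vein injections, tissue beside metastases, cultured cells of 7 lines and healthy FVB lung and liver completed the set. All samples were untreated, and the labels gave no ages.

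Depth, recovered from the steps of the RPKM values, ran from 8106342 to 69928318 counted reads per library with a median of 27175844, and 1 read was worth a median of 0.00948 RPKM for Cldn1 and 0.0150 to 0.0196 RPKM for the other members. The labels of 5 profiles need care. Mvt1 primary tumour 5 correlated with 4T1 primary tumours (r = 0.954) rather than with its own group (r = 0.507) and had 35.7 RPKM of Myc, against 354 to 412 RPKM in the other 5 Mvt1 tumours. Met1 primary tumour 1 did not correlate with its own group (r = -0.02) and held 78.7 RPKM of the leukocyte gene Ptprc. A PyMT FVB lung metastasis held 55027 RPKM of the lung gene Sftpc. Of PyMT BL6, 1 lung metastasis had 2.33 RPKM summed over 9 lung markers and 1 primary tumour had 700 RPKM, so these profiles go against their labels, and neither was in the paired comparison. Results of comparisons that use them are followed by the values without them.

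The promoters of the 3 claudins that were used to order the models, and that of Cldn6, are shown because they belong to genes described as moving together or apart below. Cldn4 and Cldn3 are neighbours on chromosome 5, their annotated genes 39279 bases apart, and Cldn6 lies 137 bases from Cldn9 on chromosome 17. Each window holds 250 bases before and 50 bases after an annotated gene start (RefSeq, GRCm38.p6; the deposited values were made on mm9), read 5′ to 3′ on the gene's strand. Capitals mark CAGGTG or its reverse complement CACCTG, letters of the E-box that the repressors Snai1 and Zeb1 are known to bind. All 6 members matched by gene ID, with 8 windows in all.
Cldn4, chr5:134946885-134947184, minus strand: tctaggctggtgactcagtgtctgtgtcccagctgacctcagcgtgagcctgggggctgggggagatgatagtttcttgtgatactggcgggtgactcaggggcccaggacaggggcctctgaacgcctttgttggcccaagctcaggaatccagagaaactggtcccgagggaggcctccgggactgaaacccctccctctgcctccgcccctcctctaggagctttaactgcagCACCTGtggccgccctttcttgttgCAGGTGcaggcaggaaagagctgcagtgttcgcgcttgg
Cldn3, chr5:134985964-134986263, plus strand: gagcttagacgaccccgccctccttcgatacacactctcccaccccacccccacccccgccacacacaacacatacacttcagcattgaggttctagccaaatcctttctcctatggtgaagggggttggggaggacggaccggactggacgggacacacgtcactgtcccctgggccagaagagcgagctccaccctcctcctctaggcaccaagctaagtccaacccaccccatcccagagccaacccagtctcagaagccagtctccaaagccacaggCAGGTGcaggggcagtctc
Cldn7, chr11:69965171-69965470, plus strand: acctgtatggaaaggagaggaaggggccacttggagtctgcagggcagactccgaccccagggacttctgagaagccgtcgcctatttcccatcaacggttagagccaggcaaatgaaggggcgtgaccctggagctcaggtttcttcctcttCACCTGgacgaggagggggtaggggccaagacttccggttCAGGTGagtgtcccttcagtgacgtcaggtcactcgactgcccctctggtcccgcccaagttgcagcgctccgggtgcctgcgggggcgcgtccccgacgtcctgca
Cldn6, chr17:23679115-23679414, plus strand: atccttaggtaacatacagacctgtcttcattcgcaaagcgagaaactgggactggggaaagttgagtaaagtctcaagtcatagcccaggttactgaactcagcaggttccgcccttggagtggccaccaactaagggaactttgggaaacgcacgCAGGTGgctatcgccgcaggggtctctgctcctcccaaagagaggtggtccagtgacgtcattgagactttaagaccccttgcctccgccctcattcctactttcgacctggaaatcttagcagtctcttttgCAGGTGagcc
The hexamer stood in these 4 windows of the members and not in those of Cldn1, both of Cldn10 and the other Cldn7 start. In Cldn4 it began 14 bases upstream and 11 bases downstream of the start, in Cldn3 31 bases downstream, in Cldn7 97 and 57 bases upstream, and in Cldn6 93 bases upstream and 40 bases downstream. Of all 32851 windows of this length, 6640 (20.2%) held it on either strand. A match describes the letters alone. Cldn6 shares it with the other 3 genes although its levels followed another order.

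In primary tumours the models ran from near absence of Cldn3, Cldn4 and Cldn7 to levels above 100 RPKM. Ordered by the mean log2(RPKM + 1) of these 3 claudins, 67NR stood lowest (0.10) and C3Tag highest (6.67). Below 5 RPKM in all 3 were 6 models, 67NR, E0771, EMT6, D2A1, 4T07 and 6DT1, all allografts. This grouping was made from the claudin values themselves and is a description without a test. Just inside it, 6DT1 averaged 0.201 RPKM of Cldn3, 1.52 of Cldn4 and 0.131 of Cldn7, and 4T07 averaged 0.10, 0.238 and 1.03 RPKM of the same genes. Just outside it, Mvt1 averaged 1.57, 19.5 and 1.5 RPKM and 4T1 averaged 2.09, 97.7 and 5.73 RPKM. Without tumour 5, Mvt1 averaged 0.334 ± 0.305 RPKM of Cldn3, 1.00 ± 1.09 of Cldn4 and 0.162 ± 0.205 of Cldn7 (SD, n = 5), which is inside. In bulk tissue, fewer cells of a type and less RNA per cell cannot be told apart.

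**Figure D1:**
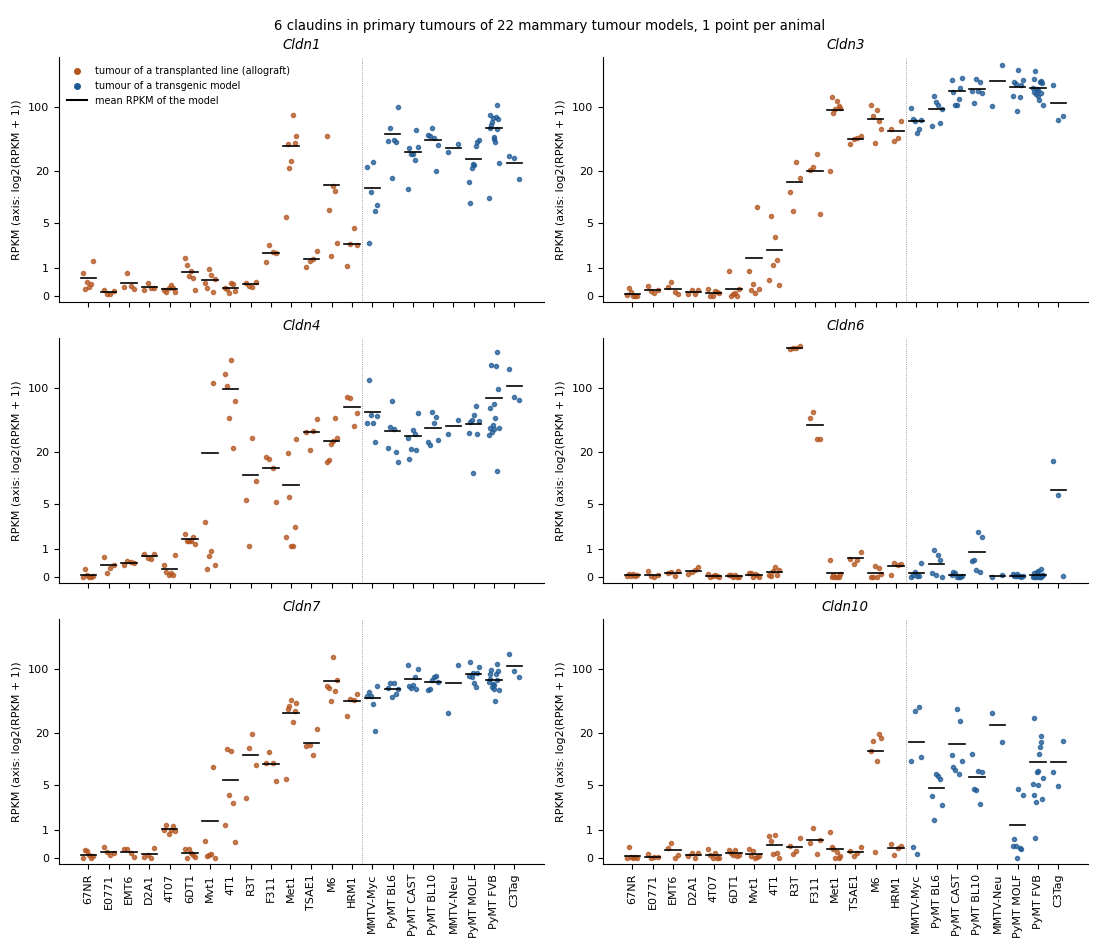
RPKM of the 6 claudins in primary tumours of 22 models, plotted as log2(RPKM + 1), 1 point per animal, with allografts in orange on the left and transgenic models in blue on the right, each ordered by the mean of Cldn3, Cldn4 and Cldn7, and black bars at the mean RPKM. Cldn3 and Cldn7 lie near 0 in 67NR to 6DT1 and high in every transgenic model, while Cldn6 stands out in R3T and F311.

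As the plot by model shows, some models differed in which of these claudins they held. 4T1 tumours had much Cldn4, with a lowest value of 22.2, a median of 88.9 and a highest of 196.4 RPKM, but little Cldn3 (0.312, 1.27 and 6.03 RPKM) and Cldn7 (0.490, 3.26 and 13.5 RPKM). Every 4T1 tumour had more Cldn4 than Cldn3 or Cldn7. Met1 tumours showed the reverse, with Cldn3 at 20.3, 98.3 and 128.9 RPKM and Cldn4 at 1.13, 2.41 and 28.0 RPKM. R3T tumours had Cldn3 at 11.7, 6.95, 25.3 and 16.7 RPKM and Cldn7 at 3.39, 13.6, 19.5 and 8.77 RPKM beside Cldn6 at 257.7 to 277.3 RPKM. The allografts TSAE1, F311, HRM1 and M6 filled the range between, with Cldn3 means of 45.3 ± 3.66, 20.2 ± 10.2, 54.8 ± 12.4 (SD, n = 4 each) and 74.9 ± 23.2 RPKM (SD, n = 6).

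Cldn3 was highest in MMTV-Neu, where the 2 tumours had 101.4 and 277.9 RPKM, and lowest in 67NR, where the highest of 6 tumours had 0.225 RPKM. It was under a mean of 1 RPKM in 6 models and 14 were at 10 RPKM or more. Of the 21 pairs of neighbours in the order of Cldn3 means, 2 had ranges that did not overlap, so most neighbours did not differ beyond their spread. Cldn7 ran from 0.101 RPKM in 67NR to 106.8 RPKM in C3Tag, with 1 of 21 neighbouring pairs apart. Cldn4 ran from 0.0556 RPKM in 67NR to 104.8 RPKM in C3Tag, where the 3 tumours had 74.2, 79.8 and 160.5 RPKM, and 2 of 21 pairs were apart. PyMT FVB tumours spread widely in Cldn4, at 12.3, 43.9 and 242.6 RPKM (lowest, median, highest; n = 14), while their Cldn3 stayed between 104.1 and 241.6 RPKM.

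Cldn1 followed the same direction over the models but was low in more of them. Its mean was under 1 RPKM in 9 models and at 10 RPKM or more in 10, from 0.104 RPKM in E0771 to 59.5 RPKM in PyMT FVB, and all 21 neighbouring pairs overlapped. R3T, TSAE1, F311 and HRM1, which had Cldn3 at means of 15.2 to 54.8 RPKM, had Cldn1 at 0.345, 1.49, 1.91 and 2.59 RPKM. Cldn10 was at 10 RPKM or more in 4 models, with the highest mean in MMTV-Neu (16.1 and 33.2 RPKM in the 2 tumours). It varied among tumours of 1 model: MMTV-Myc tumours ran from 0.121 to 39.3 RPKM with a mean of 16.0 ± 17.3 RPKM (SD, n = 6). Met1 tumours, with the same labelled driver as PyMT FVB, had Cldn10 at a highest value of 0.901 RPKM, whereas PyMT FVB tumours had a median of 6.65 RPKM.

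Cldn6 was a claudin of few tumours. It reached 267.3 ± 8.04 RPKM in R3T and 39.7 ± 13.6 RPKM in F311 (SD, n = 4 each), and 15.9, 6.47 and 0.0417 RPKM in the 3 C3Tag tumours, and it stayed under a mean of 1 RPKM in the other 19 models. Its neighbour Cldn9, a claudin known from the inner ear, was also highest in R3T, at 66.6 RPKM, followed by HRM1 at 47.6 RPKM, where Cldn6 averaged 0.313 RPKM. Whether the counting could split reads between these adjoining genes was not tested. The 4 tumours of R3T lay close to each other in Cldn6, whereas their Cldn4 ranged from 1.16 to 28.5 RPKM.

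Across the 22 models the members moved together to different degrees. These correlations are of mean log2(RPKM + 1), are given as a description, and rest on models that share lines of descent, drivers and a laboratory. Cldn3 and Cldn7 had Pearson r = 0.98 and Spearman rho = 0.92, Cldn3 and Cldn4 r = 0.82 and rho = 0.73, and Cldn1 and Cldn3 r = 0.89 and rho = 0.89. Cldn10 and Cldn3 had r = 0.73 and rho = 0.86. Cldn6 had r between -0.18 and 0.06 with the other members. Epcam followed Cldn7 (r = 0.97) and Cldn3 (r = 0.95), whereas the luminal keratin Krt8 followed Cldn3 less closely (r = 0.56). Of the 6 models low in all 3 claudins, 67NR had almost no Krt8 (0.685 RPKM), but the other 5 averaged 37.2 to 208.0 RPKM of it, with Epcam at 0.604 to 1.11 RPKM. Vimentin, the filament protein of mesenchymal cells, ran against Cldn1 (r = -0.97) and averaged 826 to 1971 RPKM in these 6 models, against 48.3 to 111.2 RPKM in transgenic models. High Vim was no mark of these 6 models alone: R3T averaged 2276, TSAE1 1613, Mvt1 998, 4T1 819 and F311 714 RPKM, some of them with Cldn3 at 15.2 to 45.3 RPKM.

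The genes whose levels over the 22 models were most like the mean of Cldn3, Cldn4 and Cldn7, among 10463 genes that reached 5 RPKM in a model, were Ripk4, a kinase of epidermal differentiation (r = 0.98), Epcam (0.97), Serpinb5 or maspin (0.97), the epithelial splicing regulator Esrp1 (0.97), Cblc (0.96), E-cadherin Cdh1 (0.96), tricellulin Marveld2 (0.96) and Mpzl2 (0.96). The most unlike were the collagen receptor Ddr2 (-0.88), Slfn3 (-0.87), Xlr (-0.87), Fbxo4 (-0.86) and Igfbp4 (-0.86). Cldn1 was most like Grhl1 (0.99), Ehf (0.98) and Zfp750 (0.98), transcription factors of epithelial differentiation. Cldn10 was most like Chad (0.95), Gna14 (0.91) and Pof1b (0.89). Cldn6, which rests on R3T and F311, was most like Tmem128 (0.85), Gad2 (0.83) and Rdh5 (0.83).

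**Figure D2:**
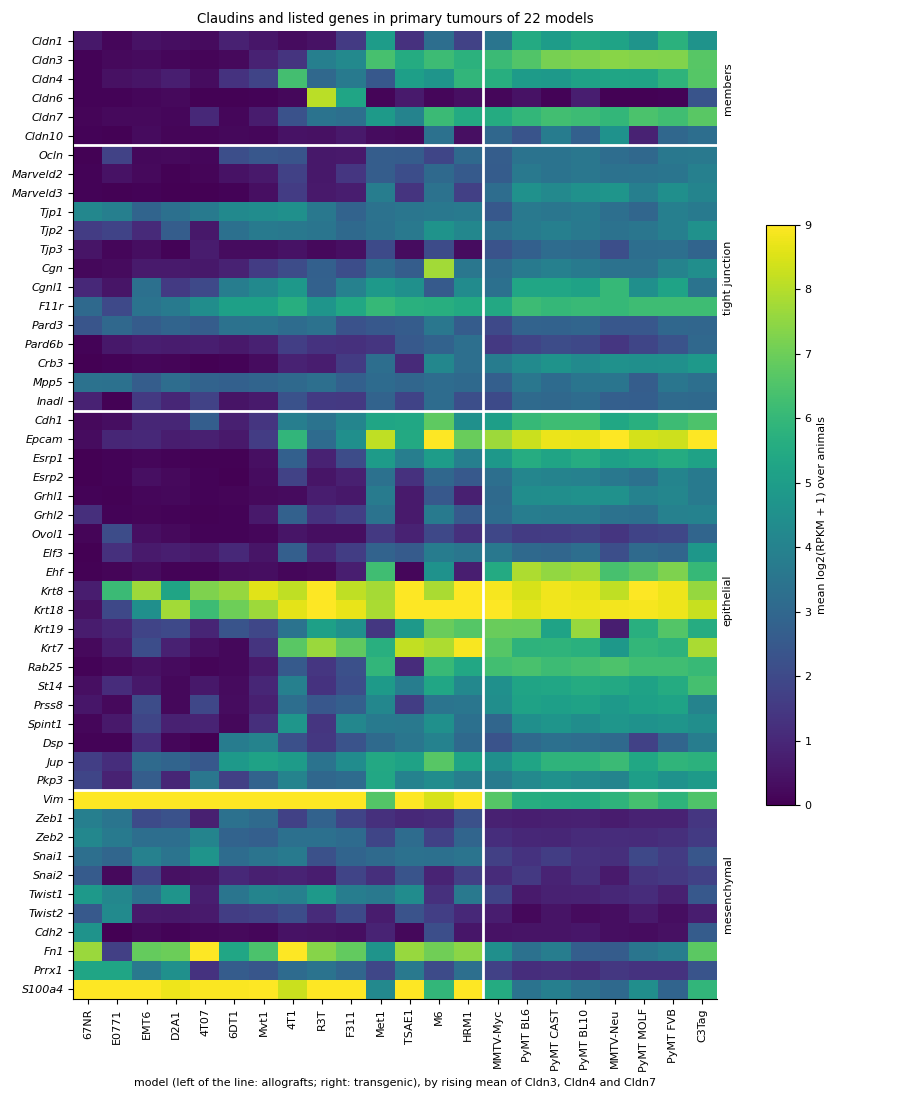
Mean log2(RPKM + 1) of the 6 claudins, of tight junction partners, of epithelial genes and of mesenchymal genes (rows) in primary tumours of 22 models (columns), with colour running from low to high. The rows of Cldn3 and Cldn7 resemble those of Epcam, Cdh1 and Marveld2, and the models on the left that lack them are rich in Vim.

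Set side by side as kinds of model, with each model counted once, 14 allografts had lower levels of 5 of the 6 claudins than 8 transgenic models. Cldn3 averaged 0.0644 to 92.3 RPKM in the allografts with a median of 1.83 RPKM, against 71.0 to 189.7 RPKM with a median of 150.6 RPKM in the transgenic models. Only Met1 and M6 reached the transgenic range of Cldn3. Cldn7 had a median of 3.61 RPKM in the allografts and 74.5 RPKM in the transgenic models, and Cldn4 9.89 and 39.6 RPKM, with 13 and 11 of 14 allografts below every transgenic model. Cldn1 had medians of 0.522 and 34.7 RPKM, Cldn10 of 0.200 and 9.41 RPKM. For each of these 5 genes 1 to 3 allografts reached the transgenic range. Cldn6 did not follow them, with a median of 0.120 RPKM and a highest mean of 267.3 RPKM in the allografts, against 0.0900 and 7.46 RPKM in the transgenic models.

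By limma on log2(RPKM + 1), all 5 members tested were called lower in allografts at an adjusted p under 0.05, where 22.1% of 11711 genes were called lower and 40.2% were called in either direction. Cldn3 differed by -4.45 ± 0.88 (log2, SE; adjusted p = 0.000383), Cldn7 by -3.87 ± 0.74 (0.000285), Cldn1 by -3.77 ± 0.49 (5.24e-06), Cldn4 by -2.86 ± 0.75 (0.00417) and Cldn10 by -2.47 ± 0.39 (4.16e-05). Cldn6 did not reach 1 RPKM in enough models to be tested. Cldn1 and Cldn10 passed that filter only through the transgenic models, where they were high, so counting them adds nothing to their direction. Cldn3, Cldn4 and Cldn7 reached 1 RPKM in enough allografts to pass without the transgenic models, Cldn3 only with Mvt1 tumour 5 included. All 5 stayed called when any 1 model was left out and without the libraries that stand apart.

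Other genes of the junction were lower in allografts too, though not all, as the heat map of listed genes shows. Of 14 tight junction partners 8 were lower and 0 higher (median -1.49), with the junction scaffold Tjp3 (-2.29), Marveld3 (-3.22), the polarity protein Crb3 (-3.30) and Marveld2 (-2.28) the clearest. Of 20 epithelial genes 16 were lower and 0 higher (median -2.44), among them Ehf (-5.88), Grhl1 (-3.38), Prss8 (-2.95) and Esrp2 (-2.74). Of 10 mesenchymal genes 9 were higher (median 1.87), led by Vim (3.83), Zeb2 (1.95), Snai1 (1.72) and S100a4 (5.12). The median over all genes tested was -0.02. Of 6 other claudins tested, Cldn8 (-3.21), Cldn2 (-3.27), a pore of leaky epithelia, and Cldn23 (-1.0) were lower, and Cldn5, the claudin of endothelium, which is also on the endothelial list, was higher (0.88). Markers of other cells moved with this comparison: 5 of 5 leukocyte genes were higher in allografts (median 1.46), 4 of 5 endothelial genes higher (0.88), 3 of 9 fibroblast genes higher (0.92), 1 of 2 lung genes higher, 2 of 4 mammary basal genes lower, 4 of 4 milk genes lower (-5.85) and 0 of 2 adipocyte genes called. Their part in the claudin levels was not tested. Fold changes are on the log2(RPKM + 1) scale throughout, which understates changes of low genes.

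Allograft and transgenic tumours were next compared within 1 labelled driver. In Met1 allografts against PyMT FVB tumours, where 30.8% of genes were called, 4 of 5 members tested fell. Of these, Cldn10 passed the filter only through the PyMT FVB tumours, where it was high, so counting it adds nothing to the direction. Cldn4 was 8.6 ± 10.8 RPKM in Met1 tumours (n = 7) and 78.1 ± 69.3 RPKM in PyMT FVB tumours (SD, n = 14), a difference of -3.37 ± 0.56 (adjusted p = 0.000116). The ranges still overlapped, since 3 Met1 tumours exceeded 6 RPKM and the highest had 28.0 RPKM. Cldn10 differed by -2.71 ± 0.40, Cldn7 by -1.33 ± 0.27 and Cldn3 by -0.92 ± 0.25 (adjusted p = 3.79e-05, 0.000729 and 0.00793). Without Met1 tumour 1 the differences were -3.19 for Cldn4, -2.81 for Cldn10, -0.98 for Cldn7 and -0.59 for Cldn3, all 4 still called. Cldn1 differed by -0.78 ± 0.41 (adjusted p = 0.151), and by -0.41 (0.394) without that tumour. Beside them 10 of 14 tight junction partners and 9 of 20 epithelial genes fell, and Krt19 by -5.15.

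Against MMTV-Myc tumours, 6DT1 tumours had almost none of the claudins tested. Cldn3 was at 0.201 ± 0.332 RPKM in 6DT1 and 71.0 ± 15.8 RPKM in MMTV-Myc tumours (SD, n = 6 each), with no overlap, a difference of -5.91 ± 0.18 (adjusted p = 7.08e-11). Cldn7 differed by -5.37 ± 0.22, Cldn4 by -4.33 ± 0.27 and Cldn1 by -2.68 ± 0.41 (adjusted p = 7.56e-10, 3.96e-08 and 7.98e-05). All 4 members tested were lower, where 23.9% of genes were called lower and 62.5% in either direction. Cldn1, Cldn3 and Cldn7 passed the filter through the MMTV-Myc tumours, where they were high, so their count carries no weight for the direction. Esrp1 (-4.73), Cdh1 (-4.27), Rab25 (-6.07) and St14 (-4.25) were lower with them, and Zeb1 (2.55) and Zeb2 (1.67) higher. In M6 allografts against C3Tag tumours, where 14.8% of genes were called, 1 of 5 members was, a share near that background. Cldn4, at 15.5 to 47.0 RPKM in the 6 M6 tumours and 74.2 to 160.5 RPKM in the 3 C3Tag tumours, differed by -1.94 ± 0.36 (adjusted p = 0.00617). The ranges of Cldn4 did not overlap. The other 4 members lay between -1.38 and 0.12 (adjusted p 0.236 to 0.940), which with 3 C3Tag tumours does not show that they were alike.

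Among transgenic models, tumours of other drivers were set against PyMT FVB. MMTV-Myc tumours had less Cldn1 than PyMT FVB tumours, 12.9 ± 8.97 RPKM (n = 6) and 59.5 ± 24.4 RPKM (SD, n = 14), a difference of -2.25 ± 0.41 (adjusted p = 7.80e-05). Their Cldn3 differed by -1.15 ± 0.15 (1.98e-06) and their Cldn7 by -0.70 ± 0.19 (0.00352), while Cldn4 and Cldn10 were not called (3 of 5, where 61.9% of genes were called). After rescaling of the libraries to the median ratio, which moves the median of all genes from -0.21 to -0.01 here, Cldn7 differed by -0.46 (adjusted p = 0.0554). C3Tag tumours differed from PyMT FVB in 1 of 5 members, Cldn3 (-0.63 ± 0.24, adjusted p = 0.0349), with 49.1% of genes called, and not when C3Tag animal 2 or 93 was left out (-0.40 or -0.47) or when libraries of 1 animal were averaged on the log scale (-0.56, adjusted p = 0.126). Both comparisons share the PyMT FVB tumours.

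PyMT tumours were also compared between strains. MOLF tumours (n = 8) had less Cldn10 than FVB tumours, 0 to 4.46 RPKM with a median of 0.357 RPKM and 0.657 to 29.3 RPKM with a median of 6.65 RPKM, a difference of -2.13 ± 0.43 (adjusted p = 0.0008). MOLF Cldn1 was at 27.2 ± 12.9 RPKM and differed by -1.09 ± 0.33 (adjusted p = 0.0141). These were 2 of 5 members, where 36.2% of genes were called, a share near that background. Cldn10 could pass the filter only with the FVB tumours, where it was high, so counting it adds nothing to the direction. BL6 tumours differed in 1 of 5 members, Cldn3, at 95.5 ± 26.8 RPKM in BL6 (n = 6) and 159.6 ± 36.3 RPKM in FVB tumours, by -0.75 ± 0.17 (adjusted p = 0.0113; 6.59% of genes called). It was -0.76 (0.0205) without the profiles that stand apart and not called when libraries of 1 animal were averaged on the log scale (-0.69, 0.0549). Within the libraries whose titles carry a KS number, MOLF Cldn1 (-0.47, adjusted p = 0.314) and BL6 Cldn3 (-0.47, adjusted p = 0.197) were not called. That subset held only a minority of the MOLF and of the BL6 tumours, among them the BL6 tumour that stands apart. The loss of these calls therefore cannot be told from the loss of tumours. In BL10 limma called 0 of 5 members (0 at an unadjusted p under 0.05; 9.37% of genes called), and in CAST 0 of 5 (2 at an unadjusted p under 0.05, Cldn1 at -0.77 and Cldn4 at -1.0; 13.1% of genes called). The FVB tumours are shared by all 4 comparisons.

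The sister lines 4T1, 4T07 and 67NR, known to come from 1 BALB/c mammary tumour, were compared next. Cldn4 had 22.2 to 196.4 RPKM in the 6 4T1 tumours, 0.0614 to 0.729 RPKM in the 6 4T07 tumours and 0 to 0.232 RPKM in the 6 67NR tumours. 4T1 differed from 67NR by 6.24 ± 0.41 (adjusted p = 3.59e-08), which is 75.4-fold on the log2(RPKM + 1) scale. Cldn4 was the 1 member tested there, passing the filter through the 4T1 tumours, and 59.4% of genes were called. In 4T07 against 67NR, with 64.8% of genes called, no member reached the level needed for a test. The 4T1 tumours also had all 15 epithelial genes tested higher, with Krt18 (8.21), Krt8 (7.42) and Spint1 (4.57), and N-cadherin Cdh2 lower (-4.19). Of all 11223 genes tested, 3316 were called higher. By means, 3 of the 20 listed epithelial genes reached 1 RPKM in 67NR and 17 in 4T1 tumours. Most of the 15 thus passed the filter through the 4T1 tumours, so their count carries no weight for the direction. 4T07 had Krt8 at 153.2 RPKM and Cdh1 at 5.50 RPKM beside near absence of all 6 claudins but Cldn7, which averaged 1.03 ± 0.169 RPKM (SD, n = 6).

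Cultured cells were available for 7 lines. Replicate cultures are not said in the labels to be separate, so their spread may be technical. Cldn4 had 22.2 to 196.4 RPKM in 4T1 tumours and 114.2 to 332.5 RPKM in 4T1 cells, and Cldn3 had 0.312 to 6.03 RPKM in 4T1 tumours and 13.9 to 51.6 RPKM in 4T1 cells, with no overlap for Cldn3. Over the 7 lines as pairs of means, limma called 0 of 3 members tested in tumours against cells, and 0 at an unadjusted p under 0.05, where 21.9% of genes were called. The differences were -0.78 ± 0.42 for Cldn3, -0.44 ± 0.40 for Cldn4 and -0.36 ± 0.34 for Cldn7. Without Mvt1 tumour 5 and Met1 tumour 1 they were -0.56 for Cldn4 and -0.38 for Cldn7, and Cldn3 was not tested. Cells of 67NR, 4T07, Mvt1 and 6DT1 averaged 0.142 to 0.581 RPKM of Cldn3.

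**Figure D3:**
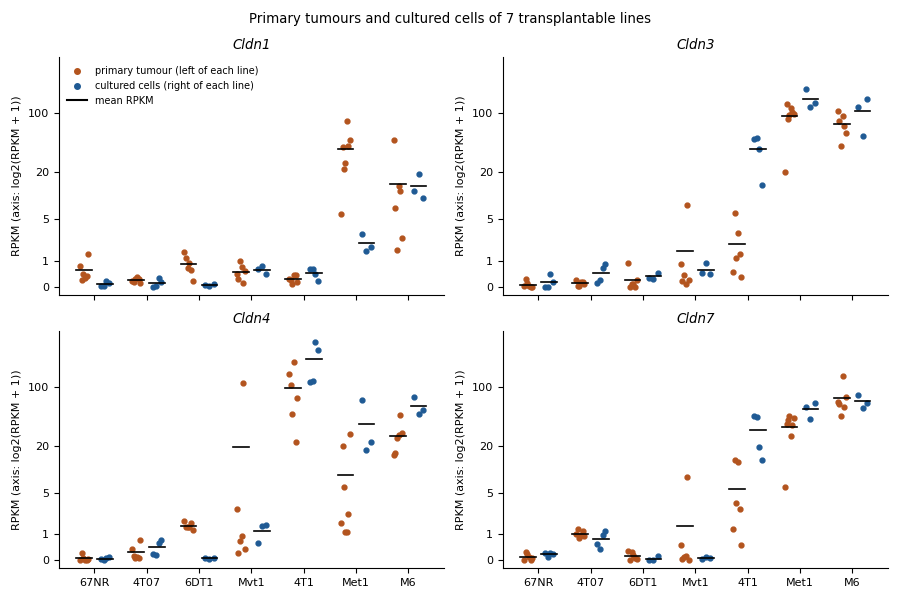
RPKM of Cldn1, Cldn3, Cldn4 and Cldn7, plotted as log2(RPKM + 1), in primary tumours (left of each pair) and cultured cells (right) of 7 lines, 1 point per tumour or culture. Cldn3 is near 0 in both tumours and cells of 67NR, 4T07, Mvt1 and 6DT1, apart from Mvt1 tumour 5, and Met1 has more Cldn1 in tumours than in cells.

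Tumours and cells of single lines lay apart in some claudins in the plot of tumours and cells, which was not tested line by line. Met1 tumours had Cldn1 at 5.86 to 81.9 RPKM, and Met1 cells at 1.56 to 3.04 RPKM. Cldn10 in M6 had 9.76 to 19.8 RPKM in 5 tumours and 0.173 RPKM in the other tumour, against 1.18 to 1.99 RPKM in M6 cells. 6DT1 Cldn4 averaged 1.52 ± 0.227 RPKM in tumours (SD, n = 6) and 0.0563 ± 0.012 RPKM in cells (SD, n = 3). Beside these, fibroblast genes were higher in tumours than in cells (8 of 9, median 4.44), as were leukocyte (4 of 4, 3.30) and endothelial genes (5 of 5, 2.35), and 0 of 14 epithelial genes were called. Of all 10735 genes tested, 1327 were called higher in tumours. Cultures hold no host cells, so markers of host cells can pass the filter through the tumours alone. These counts therefore carry no weight for the direction. What fibroblasts, leukocytes and endothelial cells add to the claudins in tumours was not tested.

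Lung metastases and primary tumours of the same animals were compared in 68 animals of 10 models. Shared over the models, 2 of 5 members were called, where 30.8% of genes were. Cldn1 was higher in lung metastases by 0.40 ± 0.06 (adjusted p = 0.000678), and Cldn4 was lower by a difference of -0.66 ± 0.17 (adjusted p = 0.0123). Cldn3 differed by 0.87 ± 0.35 (0.0801), Cldn7 by 0.26 ± 0.22 (0.391) and Cldn10 by 0.06 ± 0.19 (0.828). Without the profiles that stand apart, Cldn1 differed by 0.40 (adjusted p = 0.00362), Cldn4 by -0.58 (0.0106), Cldn3 by 0.89 (0.0981), Cldn7 by 0.29 (0.378) and Cldn10 by 0.10 (0.726). Lung markers moved with every such comparison: 10 of 10 were higher in the shared comparison, with a median of 5.33, and healthy lung itself had Cldn3 at 56.2 ± 12.6 RPKM, Cldn7 at 21.5 ± 6.4, Cldn10 at 17.5 ± 7.92, Cldn1 at 6.45 ± 0.413 and Cldn4 at 1.39 ± 0.622 RPKM (SD, n = 4). After subtraction of the lung share estimated from 9 lung markers, neither call held, with Cldn1 at 0.31 (adjusted p = 0.0836) and Cldn4 at -0.47 (0.0756).

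**Figure D4:**
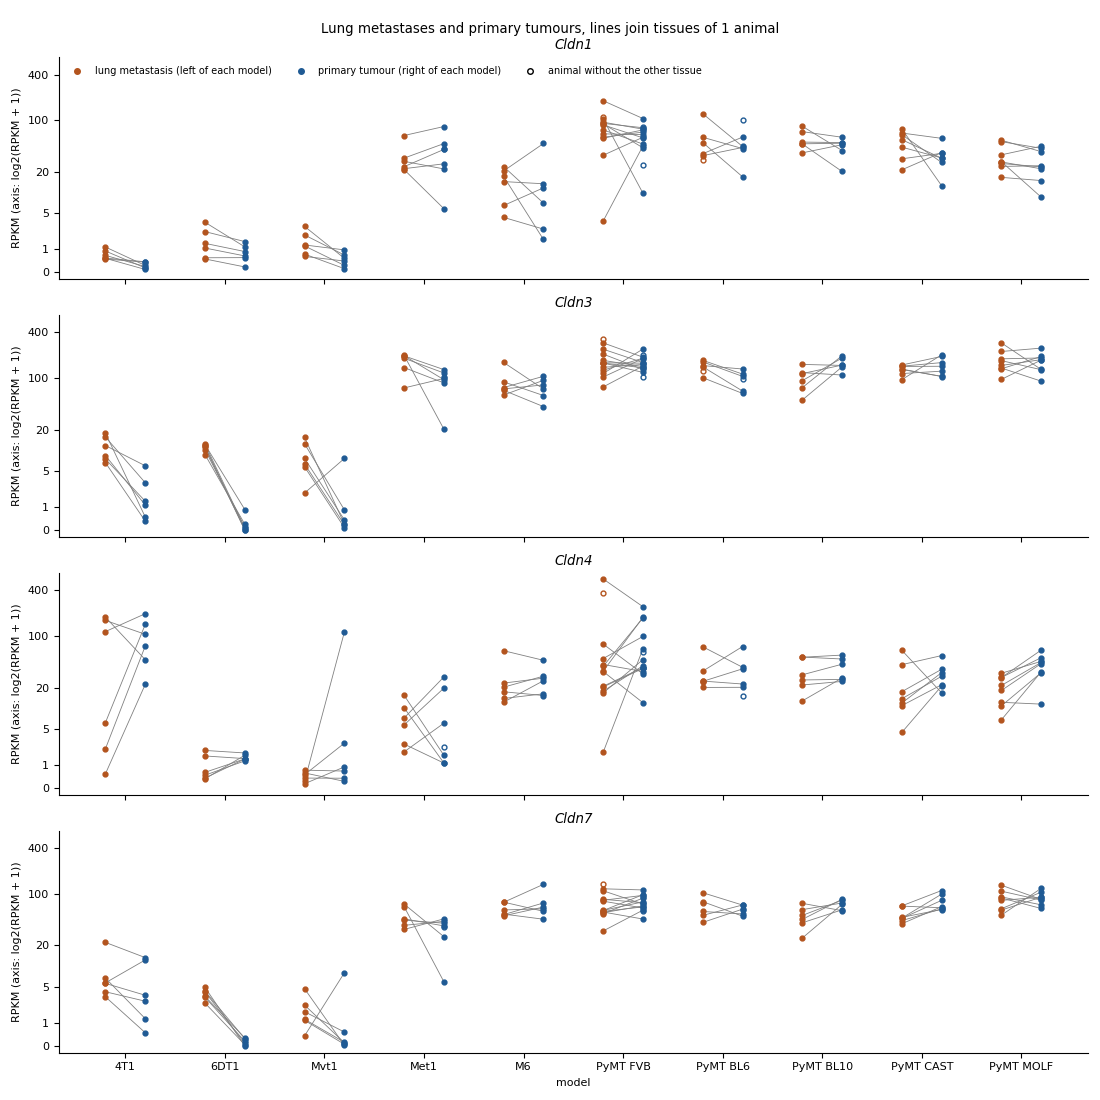
RPKM of Cldn1, Cldn3, Cldn4 and Cldn7, plotted as log2(RPKM + 1), in lung metastases (left) and primary tumours (right) of 10 models, with lines joining tissues of 1 animal and open points for animals without the other tissue. Cldn3 lies higher in the metastases of 4T1, 6DT1 and Mvt1, and changes little in the transgenic models.

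The plot of paired tissues shows Cldn3 furthest apart in 6DT1, 4T1 and Mvt1. In 6DT1, Cldn3 had 8.87, 11.6 and 12.5 RPKM in lung metastases (lowest, median, highest; n = 6), against 0, 0.0765 and 0.863 RPKM in primary tumours. It was higher in 6 of 6 pairs with no overlap, by 3.38 ± 0.13 (adjusted p = 2.08e-06). Cldn7 had 2.66 to 4.88 RPKM in 6DT1 metastases and 0 to 0.274 RPKM in the tumours, also higher in 6 of 6 pairs, by 2.07 ± 0.12 (1.98e-05). Cldn1 differed by 0.43 ± 0.14 (adjusted p = 0.0397), a call that was lost when animal 2, 3 or 5 was left out, without the pairing (adjusted p = 0.254) and with no filter (0.0543). These were 3 of the 4 members tested in 6DT1, where 34.4% of genes were called. Cldn3 and Cldn7 passed the filter through the metastases, where they were high, so the count says nothing of the direction. Beside them the summed 9 lung markers were at 2561 to 6670 RPKM in 6DT1 metastases and 5.57 to 16.2 RPKM in the tumours. Of 15 epithelial genes tested 11 were higher, where 2162 of all 11121 genes were called higher. By means, 7 of the 20 listed epithelial genes reached 1 RPKM in 6DT1 tumours. Part of the 15 thus passed the filter only with the metastases, so their count carries no weight for the direction. With the lung share (median 29.9%) subtracted, mean Cldn3 in 6DT1 metastases was 0.103 RPKM, against 11.2 RPKM as deposited. Cldn7 was 0 RPKM, against 3.80 RPKM. Values below 0 after subtraction were set to 0, so these levels do not show absence. Cldn1, Cldn3 and Cldn7 were no longer tested there.

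4T1 lung metastases had Cldn3 at 6.72, 10.3 and 17.9 RPKM, against 0.312, 1.27 and 6.03 RPKM in the tumours. It was higher in 6 of 6 pairs, by 2.19 ± 0.30 (adjusted p = 0.00479), as 1 of 3 members tested, where 12.1% of genes were called. Cldn3 passed the filter through the metastases, where it was high, so its count says nothing of the direction. With the lung share subtracted the difference was -0.40 ± 0.46 (adjusted p = 0.571). Cldn4 split the 4T1 metastases: animals 10, 11 and 12 had 159.9, 176.6 and 113.8 RPKM, and animals 1, 2 and 9 had 6.26, 0.536 and 2.28 RPKM. Epcam split the same way, at 121.9 to 163.3 RPKM in animals 10, 11 and 12, and 2.35 to 19.5 RPKM in animals 1, 2 and 9. Against their primary tumours, at 22.2 to 196.4 RPKM, Cldn4 differed by -1.84 ± 0.87 (adjusted p = 0.179) and was lower in 4 of 6 pairs. Krt8 stayed at 173.7 to 364.5 RPKM in all 6 metastases. Summed lung markers were at 570 to 12782 RPKM in the 4T1 metastases and 3.76 to 9.00 RPKM in the tumours.

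Mvt1 lung metastases had Cldn3 at 2.07, 7.10 and 15.6 RPKM, against 0.0784, 0.282 and 7.77 RPKM in the tumours, with the 7.77 RPKM in tumour 5. The difference was 2.19 ± 0.63 (adjusted p = 0.0369), as 1 of 2 members tested, both of which passed the filter through the metastases, where 29.0% of genes were called. Without animal 5 it was 2.94 ± 0.18 (adjusted p = 0.000285), and Cldn7 was called too, at 1.41 ± 0.24 (0.00455), against 0.72 ± 0.61 (0.403) with it. The Cldn3 difference was not called when any 1 of the other 5 animals was left out. With the lung share subtracted and values below 0 set to 0, Cldn3 was 0 RPKM in each Mvt1 metastasis and was no longer tested. Such a 0 is a limit of the subtraction and not a measured absence. Summed lung markers were at 846 to 10854 RPKM in Mvt1 metastases and 3.48 to 13.4 RPKM in the tumours.

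In models with high claudins in the tumours, few differences passed. In Met1 limma called 0 of 4 members (0 at an unadjusted p under 0.05; 0.317% of genes called) and in M6 0 of 5 (0; 4.71%). In PyMT FVB it called 0 of 5 (0; 1.27%), in BL6 0 of 5 (1, Cldn3 at 0.63; 0.651%) and in BL10 0 of 5 (3, Cldn3 at -0.68, Cldn7 at -0.59 and Cldn10 at -1.19; 2.56%). Met1 Cldn3 had 73.5, 189.1 and 199.1 RPKM in metastases and 20.3, 98.3 and 128.9 RPKM in tumours, higher in 5 of 6 pairs, by 0.96 ± 0.41 (adjusted p = 0.457). Without animal 1 it was 0.51 (0.417), and 0 of 4 members were called, with 1 at an unadjusted p under 0.05. In PyMT FVB, Cldn1 differed by 0.18 and Cldn4 by -0.83, and by 0.49 and -0.50 without the metastasis that stands apart, with 0 of 5 called. With the lung share subtracted, mean Cldn3 in Met1 metastases was 188.3 RPKM, against 164.1 RPKM as deposited. In BL10 the same subtraction gave a call for Cldn10, at -2.01 (adjusted p = 0.0436).

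In 2 wild-derived strains 1 member each passed. CAST metastases had Cldn7 at 39.6, 47.2 and 68.9 RPKM, against 61.5, 67.2 and 110.2 RPKM in the tumours, lower in 6 of 7 pairs, a difference of -0.58 ± 0.14 (adjusted p = 0.0475; 1 of 5 members, 4.51% of genes called). MOLF metastases had Cldn4 at 6.90, 19.8 and 31.5 RPKM, against 11.7, 43.3 and 64.5 RPKM in the tumours, lower in 7 of 8 pairs, a difference of -1.03 ± 0.20 (adjusted p = 0.0284; 1 of 4 members, 1.10% of genes called). Both calls were lost without the pairing (adjusted p = 0.0675 for CAST and 0.275 for MOLF) and with no filter (0.0649 and 0.0712). The CAST call was also lost with the lung share subtracted (-0.47, adjusted p = 0.0962) and with rescaled libraries (-0.50, 0.0743), and leaving out 1 animal ended it for 5 of 7 animals and the MOLF call for 5 of 8. MMTV-Neu, with 2 animals, had Cldn4 at 10.3 and 3.78 RPKM in metastases, against 32.1 and 45.2 RPKM in the tumours of the same animals.

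**Figure D5:**
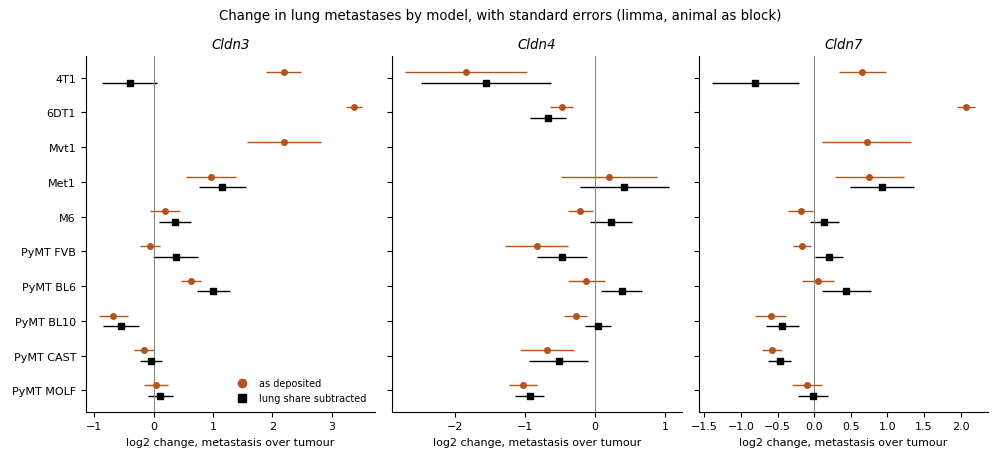
Change of Cldn3, Cldn4 and Cldn7 in lung metastases against primary tumours (log2 difference on the scale of RPKM + 1, bars SE) in each of 10 models, as deposited and with the estimated lung share subtracted, left out where a gene was not tested. Cldn3 in 4T1 stands at 2.19 as deposited and -0.40 with the lung share subtracted, while Cldn4 in MOLF stands at -1.03 and -0.93.

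As the plot of changes shows for single models, the values spread widely. Whether the change in metastases differs between 5 allograft lines and 5 PyMT strains was tested directly. limma called 0 of 5 members (3 at an unadjusted p under 0.05; 0.730% of genes called), with differences of 1.83 ± 0.49 for Cldn3 (adjusted p = 0.133), 1.08 ± 0.33 for Cldn7 (0.168) and 0.97 ± 0.26 for Cldn10 (0.133). Without the profiles that stand apart these were 1.90, 1.10 and 0.96, with 0 called. Without Met1 or without M6, 1 member was called.

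Liver metastases were compared with primary tumours in M6. In liver metastases of 7 animals after intracardiac injection, against orthotopic tumours of 6 animals, where 41.7% of genes were called, 1 of 5 members differed: Cldn7, at 12.2 to 54.0 RPKM in the metastases and 45.6 to 133.2 RPKM in the tumours, by -0.96 ± 0.31 (adjusted p = 0.0230). Summed liver markers moved with it, at 6523 to 33660 RPKM in these metastases, against 0.217 to 1.28 RPKM in the tumours. Liver beside M6 metastases had 20650 to 36616 RPKM of these markers, a range that some of the metastases reached. The part of liver tissue in the result was not tested. Rescaling of the libraries, which moves the median of all genes from -0.34 to -0.02, ended this call, as did leaving out 1 M6 tumour, that with the second lowest Cldn10 (-0.77, adjusted p = 0.0583), and without another M6 tumour there were 2 calls. Outside the test, Cldn10 had 61.5, 42.7 and 64.8 RPKM in the 3 orthotopic liver metastases, above all 6 M6 tumours (0.173 to 19.8 RPKM), and Cldn1 had 70.3, 23.3 and 74.0 RPKM there. Liver tissue beside M6 metastases had Cldn3 at 28.0 ± 10.2 RPKM, Cldn1 at 15.3 ± 4.14, and Cldn4, Cldn6, Cldn7 and Cldn10 at means under 0.12 RPKM (SD, n = 5). Liver beside metastases thus held little Cldn4 and Cldn7.

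Spleen metastases came from 2 animals each of M6 and Met1, and brain metastases from 1 each. M6 spleen metastases had Cldn3 at 84.8 and 82.2 RPKM and Cldn7 at 43.6 and 43.9 RPKM. Of the 2 animals with Met1 spleen metastases, animal 1 had Cldn3 at 106.5 RPKM and Krt8 at 339.9 RPKM, and animal 6 had 0.116 and 0.340 RPKM. Spleen beside Met1 metastases had 0 and 0.0598 RPKM of Cldn3. The 1 brain metastasis of M6 had Cldn10 at 25.5 RPKM beside Cldn3 at 0.738, Cldn7 at 0.221 and Krt8 at 1.06 RPKM. That of Met1 had Cldn10 at 16.1 RPKM, beside Cldn3 at 2.50 RPKM, where Met1 tumours had no more than 0.901 RPKM of Cldn10. Krt8 in the Met1 brain metastasis was 3.94 RPKM, so both brain samples were low in this tumour keratin, and brain without metastasis was not analysed here.

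In healthy organs 4 of 4 members tested differed between lung and liver, where 92.1% of genes were called, a share near that background. Cldn7 and Cldn10 passed the filter through the lungs, where they were high, so counting them adds nothing to their direction. Cldn7 had 21.5 ± 6.4 RPKM in lung and 0.140 ± 0.0658 RPKM in liver (SD, n = 4 each), a difference of 4.27 ± 0.18 (adjusted p = 6.77e-25), and Cldn10 differed by 4.09 ± 0.20 (3.99e-14). Cldn1 was lower in lung, at 6.45 ± 0.413 RPKM and 15.7 ± 5.82 RPKM in liver, a difference of -1.08 ± 0.24 (0.000114), and of -2.73 (1.65e-08) after rescaling of the libraries. Cldn3 had 56.2 ± 12.6 RPKM in lung and 25.4 ± 7.70 RPKM in liver, a difference of 1.14 ± 0.24 (2.97e-05), but of -0.68 after rescaling (adjusted p = 0.00145), since the median of all genes moves from 1.35 to -0.10 in this comparison. Cldn4 reached at most 2.23 RPKM and Cldn6 at most 0.218 RPKM in a healthy lung or liver.

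Of the 17 other claudins of the table, 8 reached a mean of 1 RPKM in at least 1 model and 9 in none. Cldn12 did so in all 22 models, highest in D2A1 (37.6 RPKM), a model low in Cldn3, Cldn4 and Cldn7. Cldn5 was at 1 RPKM or more in 19 models, Cldn8 and Cldn9 in 10 each, Cldn2 in 9, highest in PyMT BL10 (41.5 RPKM), and Cldn23 in 8. In lung metastases shared over the models, Cldn18, the claudin of alveolar epithelium and stomach, was higher by 4.72 and Cldn5 by 1.77, the 2 other claudins called there.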

How the data were processed

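RNA was extracted from snap frozen tissue or cultured cells and sequenced on an Illumina HiSeq2500, per the labels' protocols. The authors deposited RPKM values per gene (read counts scaled to gene length and library size), and the submitters' processing notes name TopHat, DESeq2 and mm9, without versions given in the sources used here. The labels do not say how multi-mapping reads or strand were treated. Reads per library were recovered from the steps of the RPKM values, with a step found for 18450 of 20188 genes. A step was kept only where all values of the gene came out whole within 0.01 read. No 2 profiles of a group agreed within sampling noise.

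Libraries of 1 tissue of 1 animal were averaged, and models were compared with limma 3.58.1 (R 4.3.3, trend and robust moderation) on log2(RPKM + 1), over genes that reached 1 RPKM in a number of profiles no smaller than the smaller group, with Benjamini-Hochberg adjustment over all genes tested and calls at an adjusted p under 0.05. Levels and figures were made with Python 3.11.15, pandas 2.3.3, numpy 2.4.6 and matplotlib 3.10.9. The fits were tested on simulated data. Metastases were paired with tumours by the animal numbers in the labels, and 44 of 68 pairs deviated together (r above 0.1). The lung share of a metastasis was the median over 9 lung markers, none a claudin, of its place between the tumour mean and the healthy lung mean. Values that fell below 0 on its subtraction were set to 0.

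The members and gene lists were chosen with earlier results of these data known. Named were the 6 members, at most 4 genes of each list (the called ones with the smallest adjusted p), the 8 most like and 5 most unlike the mean of Cldn3, Cldn4 and Cldn7, and the 3 most like each of Cldn1, Cldn6 and Cldn10; Myc, Ptprc, Sftpc, Krt8, Epcam, Cdh1 and Vim were added as checks. Where labels of a sample disagreed, the source or cell line entry was followed, except for 2 samples placed by title. The 4 TSAE1 columns carry 1 mouse number, so these tumours may share an animal. Alternatives were another pseudocount, no filter, rescaled libraries, averaging of logs, limma without moderation options, lung share subtraction, no pairing, and each animal or model left out. Added after seeing the data were the test of the difference in change between allograft lines and PyMT strains and the fits without the 5 profiles that stand apart.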

Additional observations from a re-analysis of the deposited data

Results flagged for a closer look

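In 11 of 133 sets of 4 to 10 samples, 1 sample lay far from the others, where chance gives about 1 in 20. Mvt1 primary tumour 5 stood apart in Cldn3 (7.77 RPKM, the others 0.0784 to 0.848), Cldn4 (111.8 RPKM, the others 0.221 to 2.89) and Cldn7 (8.17 RPKM, the others 0.0196 to 0.521). Met1 primary tumour 1 stood apart in Cldn3 (20.3 RPKM, the others 85.8 to 128.9) and Cldn7 (5.98 RPKM, the others 26.4 to 46.1). These are the 2 tumours described above as unlike their groups.

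The other 6 values were single claudins. Cldn4 was 3.05 RPKM in 4T1 tail vein metastasis 5 (the others 74.2 to 104.8), 63.2 RPKM in 1 M6 lung metastasis (the others 12.5 to 23.1) and 11.7 RPKM in 1 PyMT MOLF primary tumour (the others 32.1 to 64.5). Cldn7 was 22.0 RPKM in 4T1 lung metastasis 10 (the others 3.42 to 6.79). Cldn1 was 62.1 RPKM in Met1 lung metastasis LW_1 (the others 21.4 to 30.8), and Cldn10 was 0.173 RPKM in 1 M6 primary tumour (the others 9.76 to 19.8).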

How the results depend on the processing

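Over 36 called results of single members and 722 alternatives, 682 kept direction and call, 38 kept direction and lost the call, and 2 reversed. Alternatives in which the member was no longer tested are left out of this tally. With the lung share subtracted, these were Cldn1, Cldn3 and Cldn7 in 6DT1 metastases and Cldn3 in Mvt1 metastases, so their calls were not kept there either. The reversals were Cldn3 in 4T1 lung metastases with the lung share subtracted (-0.40) and Cldn3 in healthy lung against liver with rescaled libraries (-0.68). With the lung share subtracted, 0 members were called in lung metastases shared over models and 2 in single models, where 4 were called with no replicate block, that is without the pairing by animal. The shared calls of Cldn1 and Cldn4 held without it (0.37 and -0.61). With no filter the sister lines gave 4 calls, and M6 liver metastases gave 0 with rescaled libraries; the cause was not tested. Leaving out 1 animal or model gave 2 to 3 shared calls, 6 to 8 in single models, 5 for allografts, 0 for tumours against cells, 1 to 2 for sister lines, 9 to 10 within drivers, 3 to 4 for strains, 3 to 5 for Myc and C3Tag, 4 to 5 for healthy organs, 0 to 2 for M6 liver metastases and 0 to 1 for the difference in change. Without the 5 profiles that stand apart, 8 members were called in single models in place of 7, the added one Cldn7 in Mvt1. Low models numbered 4 at 1 RPKM, 6 at 10 RPKM and 7 by medians. Levels near 1 read, as in 67NR, carry no order.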

Other observations

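Several groups entered no comparison. Resected Met1 primary tumours had Cldn3 at 146 ± 37.8 RPKM, Cldn4 at 17.2 ± 4.73, Cldn7 at 46.4 ± 12.8 and Cldn1 at 17.3 ± 4.51 RPKM (SD, n = 4). Lung metastases after tail vein injection of 4T1 had Cldn3 at 3.94 ± 0.843 RPKM and Cldn4 at 76.0 ± 37.1 RPKM (SD, n = 6), and 6DT1 had Cldn3 at 4.83 and 6.52 RPKM. The 6DT1 liver metastasis profile, a mean of 2 libraries of 1 animal, had Cldn3 at 21.3 RPKM and Cldn1 at 17.4 RPKM. Liver beside a 6DT1 metastasis had 50.3 and 18.6 RPKM of them, and Cldn7 was at 0.101 and 0.220 RPKM in the same tissues. Summed liver markers were at 27944 RPKM in the metastasis profile and 40077 RPKM in the liver beside, and their part in these levels was not tested.

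The profile labelled lung metastasis after intracardiac injection of M6 was a mean of 2 libraries of 1 animal. It had 36.7 RPKM summed over 9 lung markers and 6120 RPKM over liver markers, with Cldn3 at 86.2 RPKM, Cldn10 at 30.4 RPKM and Cldn1 at 15.8 RPKM. Lung beside PyMT FVB metastases had Cldn3 at 78.2 RPKM, Cldn7 at 31.6 RPKM and Cldn10 at 10.8 RPKM (means, n = 5).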
